A study of Oryza sativa with 12 samples.

Results

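Enzymes of phenylpropanoid metabolism are described here in rice seedlings that lack PHR transcription factors: the laccases LAC4, LAC19 and LAC20, the cinnamyl alcohol dehydrogenase CAD6, and the phenylalanine ammonia-lyase PAL06. They were found on the array by their annotated symbols and synonyms, with and without the prefix Os, and came to 6 probe sets of 5 genes, out of 57194 probe sets that were not controls and 17905 genes that the annotation names alone for a probe set. PAL06 had 2 probe sets and each other gene had 1. The 5 genes had been picked because they lie on opposite sides of WT in the phr123 mutant, so every difference between phr123 and another genotype below is a description of values that chose them, and carries no test. Only the comparisons among phr1, phr3 and WT were tested for these genes. Those of phr1 and phr3 with WT share the WT arrays with the comparison that chose the genes. Only phr1 against phr3 compares neither of its groups.

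The groups were the triple mutant phr1phr2phr3 (phr123 below), the mutants phr1 and phr3, and WT, the cultivar Nipponbare, with 3 arrays each. PHR proteins are MYB-type regulators that turn on the genes with which a plant responds to a lack of phosphate. Every group, WT included, had been grown hydroponically for 14 days with 200 µM phosphate and then for 7 days with none, so no group had phosphate at harvest. The tissue is labelled leaf and the protocol speaks of shoots, and the labels do not give how many independent lines or alleles stand for each mutant. The labels do not say whether the 3 arrays of a genotype came from separate plants, so the p-values measure the spread between arrays.

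Phenylalanine ammonia-lyase opens the phenylpropanoid pathway by turning phenylalanine into cinnamate. Ligases of the 4CL family activate the hydroxycinnamic acids as CoA esters, from which flavonoids, soluble phenolics and the lignin alcohols are made, and cinnamyl alcohol dehydrogenases carry out the last reduction to those alcohols. Laccases, copper oxidases of the cell wall, and class III peroxidases then oxidise the alcohols so that they polymerise to lignin, above all in the thickened walls of vessels and fibres.

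Values are MAS5 signals, the array maker's linear intensity in arbitrary units, scaled alike on all 12 arrays. The median signal of an array was 56.6 to 85.6, and the 95th percentile of the reporter control probe sets, used here as the level below which a signal is not told from background, was 48.4 to 87.6. The signal of PHR1 was 493 ± 79.8 in phr1 and 1042 ± 146 in WT, that of PHR3 was 90.4 ± 30.8 in phr3 and 439 ± 45.8 in WT, and that of PHR2 was 28.8 ± 13.3 in phr123 and 1865 ± 147 in WT (SD, n = 3 each). PHR1 read 711 ± 126 in phr123, lower than in WT (adjusted p = 0.0116) and higher than in phr1 (adjusted p = 0.0159). PHR3 went against the label on 1 array: it read 1187 on the array labelled phr123 replicate 1, and 172.6 and 118.3 on the other arrays of phr123, so phr123 values are also given without that array. CAB2R, a light-harvesting gene of leaves, read 77519 or more on every array, and of 3 root genes the silicon exporter LSI2 was at or below the reporter level in every group, while the silicon channel LSI1 (810 to 1225) and the iron transporter IRT1 (108 to 190) were above it on every array.

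The signals of PAL06, the entry enzyme of the pathway, were highest in phr123. Its first probe set read 20127, 17564 and 18595 in phr123, 1771, 1802 and 2079 in phr1, 3110, 3422 and 3821 in phr3, and 2907, 2564 and 2225 in WT. The order was phr123, phr3, WT, phr1, and no array of a genotype overlapped with those of its neighbour in that order. The phr123 mean was 7.35-fold that of WT (log2 difference 2.88 ± 0.111 SE; fold values are taken from means of log2 signals), and the log2 difference was 2.82 without the array labelled phr123 replicate 1. The second probe set read 14896, 13362 and 14612 in phr123, 2079, 1353 and 1619 in phr1, 2240, 3707 and 2868 in phr3, and 2137, 2161 and 2032 in WT. There the phr123 arrays again stood far above the others, at 6.77-fold WT, while the phr1 and WT arrays overlapped. Both probe sets are built on the same transcript and are not independent measurements, and the second may hold probes that match other transcripts.

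**Figure D1:**
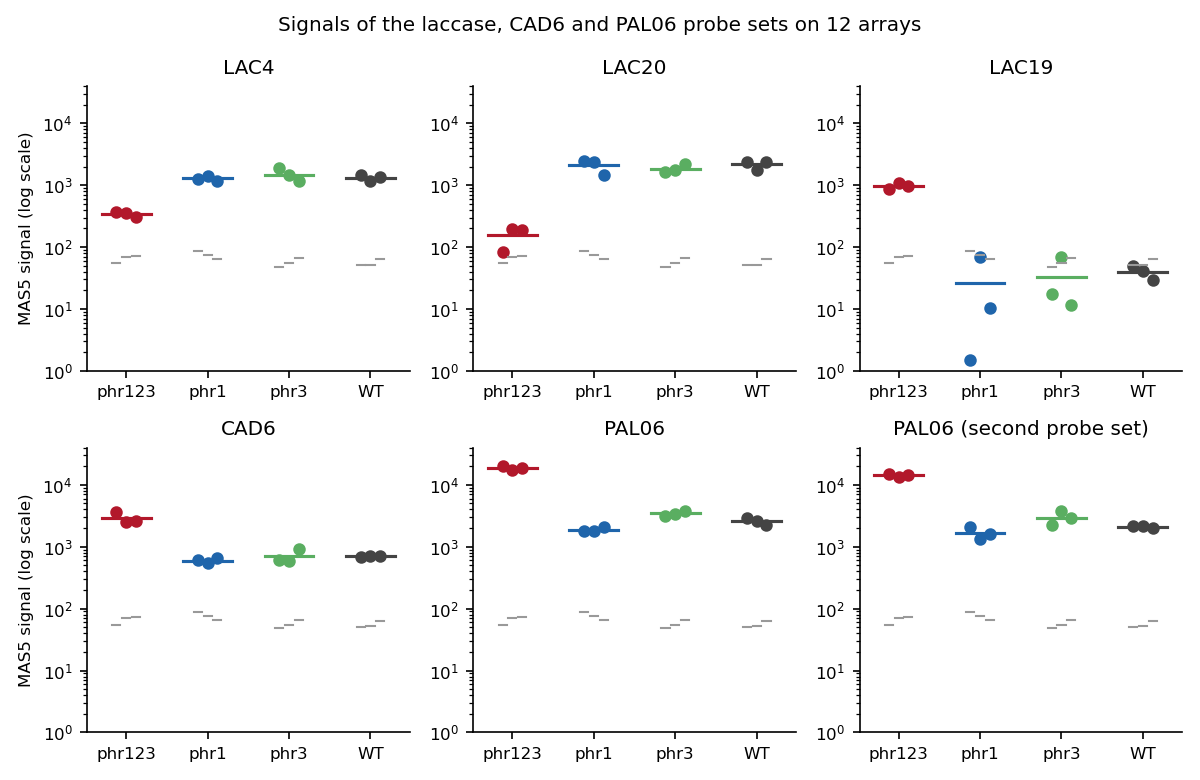
MAS5 signal on a log axis for the 6 probe sets of LAC4, LAC20, LAC19, CAD6 and PAL06 in phr123, phr1, phr3 and WT. Dots are arrays, coloured lines are means of 3 arrays, and grey ticks are the reporter control level of each array. LAC4 and LAC20 are lowest in phr123, LAC19, CAD6 and PAL06 are highest there, and LAC19 lies at or below the reporter level on 8 of the 9 arrays of phr1, phr3 and WT.

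CAD6, of the family that makes the lignin alcohols, read 3639, 2471 and 2609 in phr123, 602, 540 and 647 in phr1, 611, 598 and 927 in phr3, and 671, 714 and 704 in WT. Its phr123 arrays were all above every other array, the phr1 arrays were all below those of WT, and the phr3 arrays lay on both sides of WT. The phr123 mean was 4.11-fold that of WT (log2 difference 2.04 ± 0.175 SE). The highest of the phr123 values came from the array labelled replicate 1, and without it the log2 difference was 1.87.

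The 3 laccases did not all lie on the same side of WT in phr123. LAC4 read 363, 355 and 302 in phr123, 1281, 1414 and 1156 in phr1, 1863, 1448 and 1149 in phr3, and 1445, 1177 and 1354 in WT. Every phr123 array was below every other array, and the arrays of phr1, phr3 and WT overlapped. The WT mean was 3.90-fold that of phr123 (log2 difference, phr123 minus WT, -1.96 ± 0.160 SE), and the log2 difference was -2.01 without the array labelled phr123 replicate 1.

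LAC20 read 82.5, 199.5 and 188.2 in phr123, 2481, 2405 and 1445 in phr1, 1611, 1765 and 2166.2 in phr3, and 2357, 1752 and 2379 in WT. The phr123 arrays were the lowest, yet above the reporter level, and the other genotypes overlapped. The WT mean was 14.7-fold that of phr123 (log2 difference -3.88 ± 0.294 SE). The lowest array was the one labelled phr123 replicate 1, and the log2 difference was -3.47 without it.

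LAC19 is the direct neighbour of LAC20 on the same chromosome in the RefSeq assembly ASM3414082v1, with 0 annotated genes between them, and its values ran the other way. It read 853, 1097 and 954 in phr123, 1.5, 68.4 and 10.2 in phr1, 17.3, 69.6 and 11.6 in phr3, and 50.0, 40.6 and 29.9 in WT. All 3 arrays of phr1, 2 of 3 of phr3 and all 3 of WT were at or below the reporter level, so the signal in phr123 was at least 17.45-fold that of WT and at least 12.74-fold that of phr1. The bounds set the phr123 mean against the reporter level, or against the probe set's own signal where that was higher. The probe set passed the filter on low signals, the median over all probe sets, only through phr123: its mean log2 signal on the other 9 arrays was 4.41, against a filter of 5.63.

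Against phr1 and phr3, the other comparisons that take in phr123, the members kept the same sides. The log2 differences of phr123 from phr1 were 3.32 and 3.11 for the PAL06 probe sets, 2.27 for CAD6, -1.92 for LAC4 and -3.81 for LAC20. From phr3 they were 2.45 and 2.31, 2.04, -2.11 and -3.65 for the same probe sets. LAC19 is given no difference from phr3, where only 1 of 3 arrays was above the reporter level. These comparisons share the phr123 arrays with the one against WT. Of the 28597 probe sets tested, 41.5% passed the test in phr123 against WT, 20.5% as higher and 21.0% as lower, so a large part of the array differed there.

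Among phr1, phr3 and WT, LAC19 is left out of the counts, since it passed the filter only through phr123. Of the other 5 probe sets, 0 passed limma's moderated test (adjusted p under 0.05 over all 28597 probe sets) in phr1 against WT, where 0.934% of all probe sets passed (0.448% higher, 0.486% lower), and 0 of 5 in phr3 against WT, where 1.99% passed (1.26% higher, 0.731% lower). At an unadjusted p under 0.05 the counts were 1 of 5 and 2 of 5. In phr1 against phr3, where 1.68% passed (0.678% higher, 0.997% lower), both PAL06 probe sets were called lower in phr1. The first differed by -0.87 (SE 0.111, adjusted p = 0.00163), with phr3 at 1.83-fold of phr1 and all 3 phr1 arrays below all 3 phr3 arrays. The second differed by -0.80 (SE 0.166, adjusted p = 0.0276), with phr3 at 1.74-fold of phr1 and again no overlap of arrays. The call of the second probe set was lost without phr1 replicate 2 or 3 or phr3 replicate 2 or 3, where its adjusted p was 0.131, 0.0713, 0.101 and 0.0938, and in 7 of 20 alternatives in all, while that of the first held in all 20 alternatives.

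Against WT, whose arrays also took part in the choice of the members, neither mutant's PAL06 difference passed. The first probe set was -0.44 in phr1 (unadjusted p = 0.00146, adjusted p = 0.0975) and 0.43 in phr3 (unadjusted p = 0.00173, adjusted p = 0.0707), on opposite sides of WT and with no overlap of arrays in either. The phr3 difference passed without WT replicate 1 (log2 difference 0.53, adjusted p = 0.0426). The second probe set was -0.35 in phr1 (adjusted p = 0.492), where arrays overlapped, and 0.45 in phr3 (adjusted p = 0.258), where they did not.

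The other members gave small differences with intervals that bound them. LAC4 differed from WT by -0.05 in phr1 (95% interval -0.39 to 0.30) and 0.14 in phr3 (-0.20 to 0.49), on the log2 scale. LAC20 differed by -0.06 in phr1 (-0.69 to 0.57) and -0.22 in phr3 (-0.86 to 0.41). CAD6 differed by -0.23 in phr1 (-0.60 to 0.15) and 0.00 in phr3 (-0.37 to 0.38). These intervals give the sizes of difference that the arrays leave possible, and the adjusted p-values from limma ran from 0.724 to 0.999 for these 3 genes. For LAC19 no difference could be measured between phr1 and WT, both below the reporter level.

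**Figure D2:**
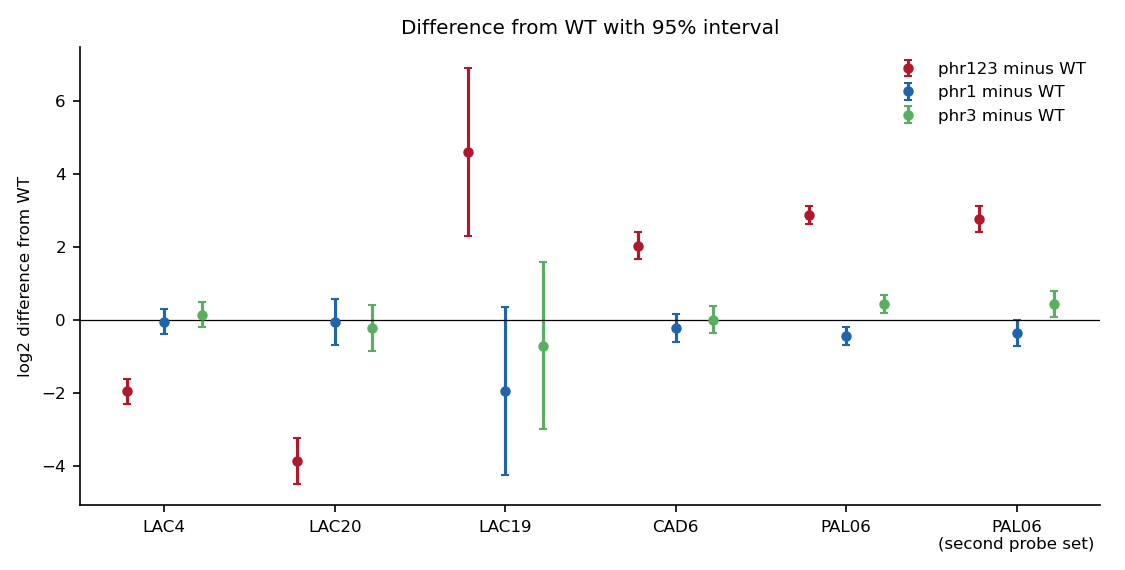
Log2 difference from WT of the 6 probe sets in phr123, phr1 and phr3, with the 95% interval from limma. In phr123 LAC4 and LAC20 lie below WT, at -1.96 and -3.88, and CAD6 and PAL06 above it, while in phr1 and phr3 those of LAC4, LAC20 and CAD6 lie within 0.23 of WT. LAC19 was at or below the reporter level in WT, so its points are fitted values and not measured differences, and its intervals are the widest.

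Other genes of the pathway were taken from a list of phenylpropanoid, lignin and flavonoid enzymes. Of 31 with a probe set, 27 passed the filter and were tested. In phr123, 8 of the 27 (29.6%) rose against WT, beside 20.5% of all probe sets, 10 (37.0%) fell, beside 21.0%, and 9 did not pass. The 8 include PRX112, counted by its brightest probe set, although its other probe set was lower. Together 66.7% of the list passed, beside 41.5% of all probe sets, and the median log2 difference was -0.06 beside 0.02. The list was chosen with results known, so nothing particular to it is read from these shares. Without the array labelled phr123 replicate 1 the counts were 9 and 9.

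At the entry step the genes differed. PAL lies on the same chromosome as PAL06, with 2 annotated genes between them. It fell slightly in phr123 (log2 difference -0.25, adjusted p = 0.0248), where PAL06 was 2.88 above WT. The 5 probe sets of PAL ran from -0.82 to -0.03, and 3 of them passed. Of the 8 tested ligases of the 4CL family, counting the 4CL-like genes, 4 rose and 3 fell in phr123. Of all probe sets 20.5% rose and 21.0% fell there. 4CL5 rose most, with 3046, 2725 and 2752 in phr123 and 532, 598 and 691 in WT (log2 difference 2.23, SE 0.135, adjusted p = 1.74e-08). 4CLL1 rose by 1.27 (adjusted p = 2.89e-08) and 4CL4 by 0.42 (adjusted p = 4.55e-04). 4CL2 differed by -1.31 (adjusted p = 6.14e-06) and 4CLL7 by -1.09 (adjusted p = 6.04e-04), so single ligases moved in opposite directions.

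4CL5 was also called in the comparisons of phr3 with WT and of phr1 with phr3. It read 684, 489 and 543 in phr1, and 940, 1058 and 1069 in phr3. It was higher in phr3 than in WT by 0.76 (SE 0.135, adjusted p = 0.00834) and lower in phr1 than in phr3 by -0.85 (adjusted p = 0.00578), and these calls held in all 20 alternatives. Like PAL06, 4CL5 was therefore lower in phr1 than in phr3 with no overlap of arrays. By brightest probe set no other gene of the 27 was called there, against a background of 1.68%. A further probe set of ROMT-17 was called higher in phr1 (log2 difference 0.49, adjusted p = 0.0304). In phr3 against WT, 4CL5 was the only one of 27 to pass, beside 1.99% of all probe sets, and the count was 2 without phr1 replicate 1 or phr3 replicate 2 and 3 without the array labelled phr123 replicate 1. In phr1 against WT only 4CL3 passed, with 4569 ± 150 in phr1 and 5949 ± 298 in WT (SD, n = 3 each, log2 difference -0.38, adjusted p = 0.0205). Its call was lost without phr1 replicate 2 or 3 and without WT replicate 1 or 2, with an adjusted p of 0.0525 to 0.111 over these and the 2 other settings that ended it.

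**Figure D3:**
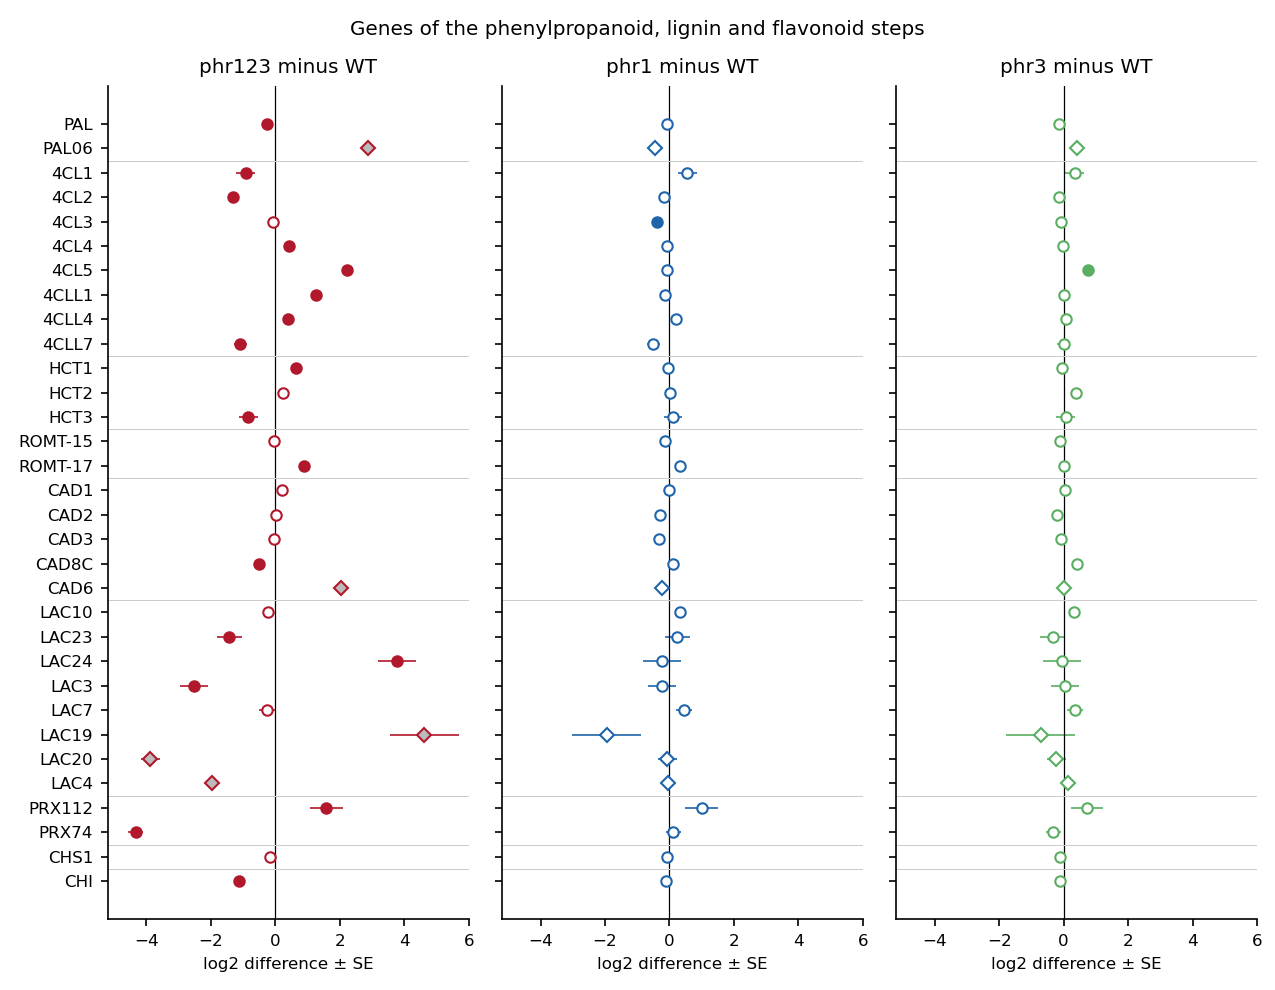
Log2 difference from WT, with its standard error, for the pathway genes in phr123, phr1 and phr3, ordered by step. Circles are genes of the list, filled where limma's adjusted p was under 0.05, and diamonds are the members, which were not tested in phr123 and are grey there. In phr123 18 of the 27 circles are filled, on both sides of 0, in phr1 only 4CL3 and in phr3 only 4CL5.

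Of the middle steps, HCT1, a hydroxycinnamoyl transferase, rose in phr123 (13770 ± 1435 in phr123 and 8755 ± 438 in WT, log2 difference 0.65, adjusted p = 4.10e-05). HCT3 fell there (log2 difference -0.84, adjusted p = 0.0297), and HCT2 differed by 0.23 (adjusted p = 0.0673). ROMT-17, an O-methyltransferase, rose by 0.89 in phr123 (adjusted p = 2.52e-04), although another of its probe sets differed by only 0.09 (adjusted p = 0.510). CHI, chalcone isomerase of the flavonoid branch, fell to 4183 ± 232 in phr123, against 9238 ± 1248 in WT (log2 difference -1.14, adjusted p = 4.31e-06). CHS1, chalcone synthase, which precedes CHI, differed by -0.18 (adjusted p = 0.178).

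Beside the 2.04 of CAD6 in phr123, none of the 4 other tested CAD genes rose against WT, where 20.5% of all probe sets did. Nothing particular to CAD6 is read from this count. CAD8C fell there (2304 ± 315 in phr123 and 3249 ± 414 in WT, log2 difference -0.50, adjusted p = 0.00254). CAD1 differed by 0.21 (adjusted p = 0.0803), CAD2 by 0.01 (adjusted p = 0.966) and CAD3 by -0.04 (adjusted p = 0.775). Against phr1, CAD2 and CAD3 were higher in phr123, by 0.32 (adjusted p = 0.0309) and 0.29 (adjusted p = 0.0152). There CAD8C differed by -0.59 (adjusted p = 6.80e-04) and CAD1 by 0.24 (adjusted p = 0.0503). CAD2 is the gold hull and internode gene of rice, known for lignin alcohol synthesis in the stem.

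Laccases likewise lay on both sides of WT in phr123. Of 5 further laccases tested, 1 rose and 2 fell, beside 20.5% of all probe sets that rose and 21.0% that fell. Nothing particular to the family is read from this count. LAC24 read 1985, 1288 and 1182 in phr123, 208, 90.9 and 38.9 in phr1, 67.2, 171.6 and 92.8 in phr3, and 233, 55.8 and 93.0 in WT. All phr123 arrays were above all others, and LAC24 rose by 3.76 against WT (SE 0.585, adjusted p = 1.31e-04). LAC3 read 87.6, 22.5 and 45.3 in phr123 and 169, 302 and 343 in WT, and fell (adjusted p = 2.96e-04). Only 1 of the 3 phr123 arrays was above the reporter level, so the fitted log2 difference of -2.54 is not a measured size. LAC23 was at least 1.61-fold lower in phr123 than in WT (adjusted p = 0.00853). LAC7 differed by -0.25 (adjusted p = 0.460) and LAC10 by -0.22 (adjusted p = 0.257). Together with the members, LAC19 and LAC24 were thus above WT in phr123, and LAC20, LAC3, LAC4 and LAC23 below it. Against WT, 0 of the 5 further laccases passed in phr1 or in phr3, beside 0.934% and 1.99% of all probe sets.

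**Figure D4:**
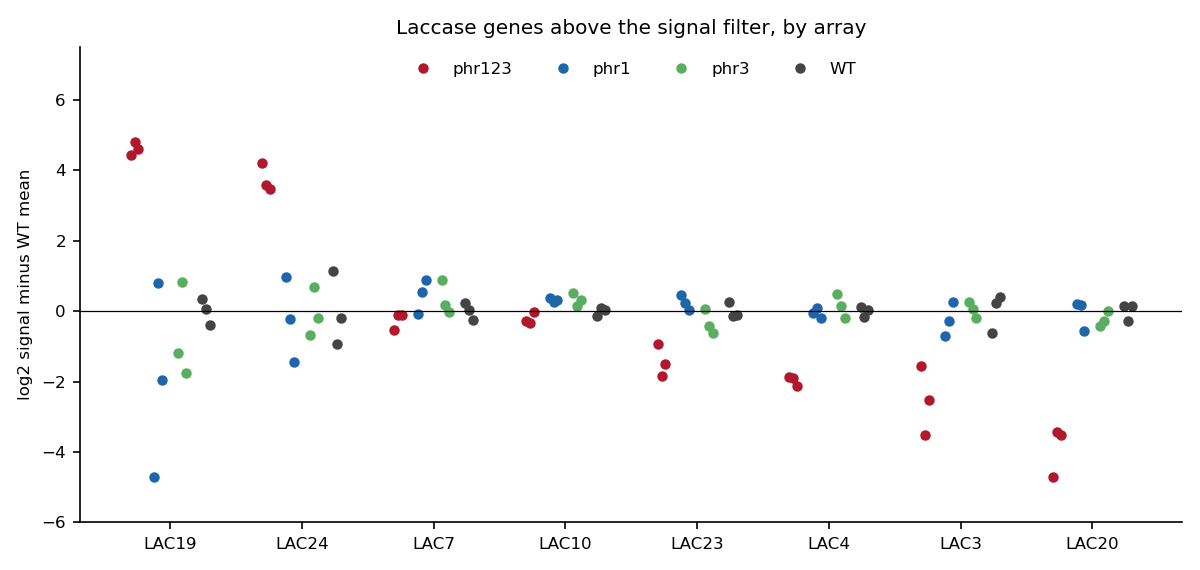
Log2 signal of 8 laccase genes on each array minus the WT mean, in phr123, phr1, phr3 and WT. LAC19 and LAC24 lie above WT in phr123, LAC7 and LAC10 close to it, and LAC23, LAC4, LAC3 and LAC20 below it. Values of LAC19 outside phr123 lie around the reporter level and scatter widely.

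Of the class III peroxidases on the list, PRX74 fell in phr123, with 173.5, 82.7 and 102.0 in phr123 and 2147, 2808 and 2011 in WT (log2 difference -4.34, SE 0.227, adjusted p = 4.69e-09). The arrays of phr1, at 2042 to 2899, and phr3, at 1733 to 2051, stayed near those of WT. The WT mean was 20.2-fold that of phr123, beside 14.7-fold for LAC20. The probe sets of PRX112 disagreed, at 1.58 (adjusted p = 0.0215) and -2.67 (adjusted p = 0.0356), so no direction is given for that gene.

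LAC4 and LAC20 were low together with 4 genes of secondary walls. The cellulose synthases CESA4, CESA7 and CESA9 of secondary walls and BC1, a COBRA-like protein needed for stiff culms, all fell in phr123 against WT. These were all 4 genes of the list that were matched to a probe set, beside 21.0% of all probe sets. SWN1, SWN2, MYB46, MYB103 and COBL5 were also listed but were not matched. The list was chosen with results known. The log2 differences were -0.97, -1.71, -1.07 and -1.01, with adjusted p-values from 1.76e-06 to 4.84e-05. Their summed signal was 4156 to 4864 in phr123, 8866 to 9234 in phr1, 8426 to 11725 in phr3 and 10332 to 10909 in WT, and none of the 4 was at the reporter level. In phr1 and phr3, 0 of the 4 passed. The log2 difference of LAC20, -3.88, lay beyond those of the 4 wall genes, and that of LAC4, -1.96, was close to that of CESA7; these gaps were not tested. In whole shoots fewer cells with thick walls and less RNA in each such cell cannot be told apart, and the part of either in these laccase values was not tested.

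Other marker sums and RNA quality controls were set side by side for the genotypes. Of 5 tested genes of dividing cells, 4 fell in phr123, 0 in phr1 and 2 in phr3, beside 21.0%, 0.486% and 0.731% of all probe sets. The sums over the 6 genes were 659 to 930 in phr123, 1600 to 1642 in phr1, 684 to 806 in phr3 and 1237 to 1431 in WT. Those of phr123 and phr3 overlapped. In phr123, 3 of the 6 were at or below the reporter level on all arrays, and PCNA, the largest part of the sum there, read 524 ± 92.4 in phr123, 371 ± 37.2 in phr3 and 523 ± 89.2 in WT (SD, n = 3 each). The part of dividing cells in the members' values was not tested. CAB2R fell by 0.31 in phr123 (adjusted p = 0.0140). The log2 signal of the 3′ over the 5′ GAPDH control was 1.69 ± 0.135 in phr123, 2.20 ± 0.358 in phr1, 2.05 ± 0.608 in phr3 and 2.35 ± 0.144 in WT (SD, n = 3 each). Its phr123 arrays, at 1.537, 1.801 and 1.718, were all below those of WT, at 2.419, 2.446 and 2.184. They overlapped with those of phr1 and phr3, and the lowest array was phr3 replicate 1, at 1.358. The actin control overlapped with WT through 1 phr123 array only, at 2.346 on phr123 replicate 2 and 2.315 on WT replicate 1. The other phr123 arrays, at 2.038 and 2.058, were below every WT array. The part of RNA quality in the members' values was not tested.

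**Figure D5:**
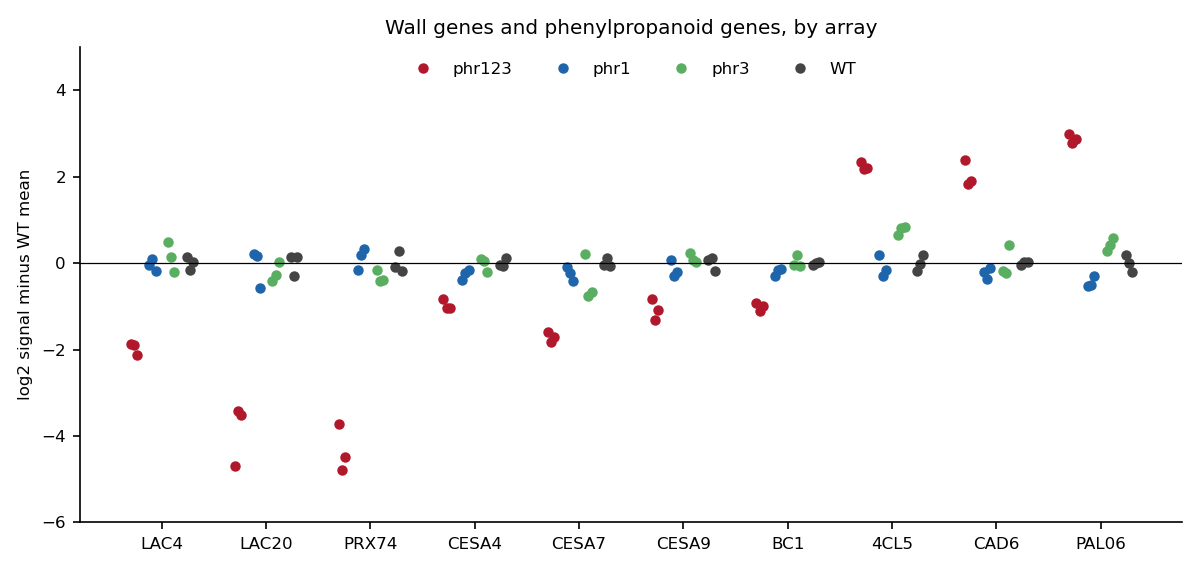
Log2 signal on each array minus the WT mean for LAC4, LAC20, PRX74, the secondary wall genes CESA4, CESA7, CESA9 and BC1, and 4CL5, CAD6 and PAL06, in phr123, phr1, phr3 and WT. In phr123 the first 7 genes lie below WT and the last 3 above it. In phr3, 4CL5 and PAL06 lie above their phr1 values with no overlap of arrays.

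The genes whose pattern was most like each member were taken as those with the smallest root mean square difference of centred log2 signals over the 12 arrays, among the probe sets with a gene name. For PAL06 they were JAZ8, a jasmonate signalling repressor, at 0.215, HAK17, a potassium transporter, at 0.274 and AOX1, an alternative oxidase, at 0.309. For CAD6 they were GH3.2, of the hormone-conjugating GH3 enzymes, at 0.217, PSK5, a phytosulfokine precursor, at 0.221 and HSF10, a heat shock factor, at 0.224. For LAC4 they were HOS66 at 0.196, PPO at 0.204 and Rac6, a small GTPase, at 0.222. LAC20 was followed less closely, by PCF8 at 0.426, PP2C73 at 0.428 and KRP6 at 0.433. LAC19 had no close match, the nearest being MAS at 1.19, LOX1.1 at 1.30 and ZIP3 at 1.45, with its values outside phr123 scattered around background. The likeness is a description over arrays that share 4 genotypes, and it takes in the phr123 arrays that chose the members. The log2 differences of phr123 from WT were 3.17 for JAZ8, 3.26 for HAK17 and 2.91 for AOX1, beside 2.88 for PAL06. In that comparison 41.5% of all probe sets passed, and no link between the genes is read from the likeness.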

How the data were processed

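Shoot RNA of 4 genotypes, 3 samples each, was hybridised to the 1-colour Affymetrix rice array. The deposited table holds MAS5 signal intensity per probe set, per the submitters' processing notes, which give no version. The deposited intensity values have a trimmed mean of 500.1 on all 12 arrays, so each array had been scaled to a common target, and changes are relative to that scaling. A scanner file was not used here.

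Members and gene lists were chosen with earlier results of these data known. The pathway list took every gene, other than the members, with a symbol or synonym that fully matched a family name pattern. GEO's platform annotation named 1 gene for 22436 probe sets, several for 95 and none for 34663, and symbols were updated through RefSeq ASM3414082v1. A gene is given by its brightest probe set. Sequences were not analysed here.

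Signals were log2 transformed (0 set to 0.1), probe sets with a mean log2 signal under the median were left out (28597 of 57194 kept), and 1 mean per genotype was fitted with limma 3.58.1 in R 4.3.3 with a trended prior and Benjamini-Hochberg adjustment over all kept probe sets, at 0.05. The fit was tested on simulated data. The number of arrays limits the precision. In each comparison, pathway genes with values were up to 6 in each direction with the smallest adjusted p among those called whose arrays did not overlap. Further genes of a step are given to complete its count and were chosen after their values were seen. Alternatives were another normalization, filter, pseudocount, prior, the replicate number as a block, single comparisons, and each array left out.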

Additional observations from a re-analysis of the deposited data

Results flagged for a closer look

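Counted by brightest probe set, limma's test of phr1 against phr3 called PAL06 among the members and 1 of 27 list genes, 4CL5. Of all probe sets 1.68% passed there. PAL06 differed by -0.87 (phr1 minus phr3, log2) on its first probe set and by -0.80 on its second, and 4CL5 by -0.85. For each of these 3 probe sets all 3 phr1 arrays were below all 3 phr3 arrays. The call of the second PAL06 probe set was lost in 7 of 20 alternatives. A further probe set of ROMT-17 was called the other way, at 0.49 (adjusted p = 0.0304), while its brightest was not called (0.33, adjusted p = 0.357).

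Outside the rice genes, the brightest of 3 control probe sets of 1 reporter sequence gave a mean signal of 421.6 in phr123. Its mean was 58.5 in phr1, 55.9 in phr3 and 55.5 in WT. On the phr123 arrays it read 373.5, 432.4 and 458.8. All 3 probe sets of the sequence were left out of the reporter level after values had been seen.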

How the results depend on the processing

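No called difference of the members changed sign in any alternative, nor did that of any pathway gene named by the rule on arrays without overlap. The signs of other called values, such as those of HCT3, PAL, LAC23 and the wall genes, were not compared across the alternatives. Among values that did not pass, the sign changed in 1 to 4 of 20 alternatives for LAC4 (-0.13 to 0.03) and LAC20 (-0.21 to 0.19) in phr1 against WT, LAC4 (-0.03 to 0.31) and CAD6 (-0.20 to 0.11) in phr3 against WT, and LAC19, near background, in phr1 against phr3. In phr123 against WT, quantile normalization gave the second PAL06 probe set 2.85, against 2.76. A pseudocount of 16 moved the fitted value of LAC19 to 4.14, against 4.61. Neither LAC19 value is a measured difference, since LAC19 is at or below the reporter level in WT. Without a trended prior the probe sets called were 121 in phr1 against WT (267 with it), 299 in phr3 against WT (569) and 169 in phr1 against phr3 (479), and 294 with the last pair fitted alone. Leaving out each array in turn gave 128 to 384, 331 to 718 and 162 to 580. Of the pathway list, 0 fell in phr1 against WT without the trend or with the 2 genotypes alone (0 to 1 with an array left out), 2 rose in phr3 against WT under quantile normalization (1 to 3 with an array left out), and 2 fell in phr1 against phr3 under quantile normalization. PAL06 in phr3 against WT ran from 0.33 to 0.53 with an array left out. The second PAL06 probe set in phr1 against phr3 stayed at -0.80 but lost its call without the trend (adjusted p = 0.116) and with the 2 genotypes alone (adjusted p = 0.0938), and ran from -0.98 to -0.61 with an array left out. With the replicate number as a block the same value, -0.80, had an adjusted p of 0.0570. The block left 235 probe sets called in phr1 against WT, 502 in phr3 against WT and 390 in phr1 against phr3. Samples of the same number did not deviate together (correlations of -0.05 to 0.03 over 18 pairs, and -0.07 to 0.07 over 36 pairs of unlike number), so the number does not pair them. The causes were not tested. A linear signal near the reporter level, as for LAC19 outside phr123, limits differences to bounds.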
